A study of Drosophila melanogaster with 2 samples.

Results

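The early ecdysone response transcription factors are the 10 genes EcR, usp, br, Eip74EF, Eip75B, Eip78C, Hr3, Hr4, Hr39 and ftz-f1, taken by name from the 13136 genes represented on the arrays. They were covered by 18 of the 14593 gene probes, 6 of them for br, 2 each for Eip74EF, Hr3 and Hr4 and 1 for each other gene. A probe carries the name of the transcript it was designed for, such as CG32180-RB for Eip74EF. Of the 18 names, 15 matched by locus tag and 3 by a synonym, namely CG11509-RA (br) and CG16902-RA and CG3600-RA (both Hr4). The rule takes the genes by name and uses no measured value, although they were listed with earlier results of these data known. The array design gives no probe sequences in the files used here.

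Ecdysone is the steroid that times moulting and the onset of metamorphosis in insects. It binds a heterodimer of the nuclear receptors EcR and Usp, which then activates the early genes br, Eip74EF and Eip75B, themselves transcription factors. These switch on later target genes together with the early-late nuclear receptors Hr3, Hr4, Hr39 and Eip78C, and Hr3 in turn activates ftz-f1, the competence factor of the prepupa. Damage to imaginal discs, the larval precursors of adult structures, is known to delay pupariation by holding back ecdysone production, partly through the relaxin-like peptide Ilp8.

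RNA came from whole female larvae of the third instar. The ablated larvae had the genotype rnGAL4, UASegr, tubGAL80ts/+, in which the rotund driver expresses eiger, a tumour necrosis factor ligand that kills cells, in the pouch of the wing disc. The control larvae carried TM6, Tb1, tubGAL80 and no driver or eiger transgene. Both were held for 24 h at 30 °C, at which the series design says cell death is induced (the treatment text of the labels gives the temperatures the other way), and the array titles give day 6. Each of 2 two-colour arrays set 1 ablated RNA against 1 control RNA. Ablated RNA carried Cy5 on array 1 and Cy3 on array 2. TM6 is a rearranged balancer chromosome of the pair that carries arm 3L, and Eip74EF, Eip75B, Eip78C and ftz-f1 lie on that arm. For these 4 genes the groups thus also differ in the chromosome that carries the gene. The genotypes differed between the groups throughout. For no gene can a difference that comes with the balancer or the rest of the genotype be told apart from one that comes with ablation. Fewer cells of a type and less RNA per cell cannot be told apart in whole larvae either. The labels do not say whether the arrays hold separate cultures, and p-values may therefore cover no more than technical spread.

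On array 1, 38.1% of gene spots in the ablated channel and 26.9% in the control channel were above local background, against 17.6% (ablated) and 15.0% (control) on array 2. A spot counted as above background when its brightness passed that of the surrounding pixels by at least 2 SD of those pixels (medians of both). Across the 6345 probes above background in at least 1 channel, the log2 ratios of ablated over control larvae ran against each other on the 2 dye-swapped arrays (Pearson's r = -0.53, Spearman's rho = -0.23, probes not being independent replicates). The value lies under the -0.3 at which the direction of single genes counts as unsettled. The labelled dyes were kept, and the mean of each tested member with the sign of array 2 turned is given beside it. A dye effect shared by both arrays and exchanged labels on 1 array cannot be told apart here. The targeted gene gave no check, because the egr probe was not above background in any channel. Ilp8 and the driver gene rn had 3 tested probes, all with opposite signs on the 2 arrays. Ilp8 stood at 1.05 and -0.99 (1.02 with array 2 turned), with neither group above background on array 2. The rn probe CG32466-RA stood at 0.34 and -0.95 (0.64 turned) and CG32467-RA at -0.0865 and 0.17 (-0.13 turned). Of the 6 testis markers, 0 had a probe above background in any channel, whereas the markers of fat body (6 of 6 genes), salivary gland (4 of 4), body muscle (4 of 5), midgut (3 of 6), wing disc (3 of 5) and blood cells (1 of 5) were measured. For the wing disc, the ablated tissue, the summed normalized intensity of the listed markers was 3970 and 12266 in ablated larvae, against 3693 and 12227 in control larvae, on arrays 1 and 2. Of its 6 tested probes, 1 was lower and 2 were higher on both arrays, and 3 had opposite signs. The 2 with the smallest p were both for nub and went opposite ways. CG15489-RA stood at -0.53 and -0.81 and CG6246-RA at 0.54 and 0.14. For CG15489-RA neither group was above background on array 2. On array 2, CG6246-RA had log2 levels of 12.97 (ablated) and 12.83 (control).

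By the labelled dyes, 2 of the 12 tested probes stood lower in ablated larvae on both arrays by more than the error between spots. That error is the largest SD between copies of a spot. Of all probes, 3.64% were lower by as much, and 15% passed it with opposite signs on the arrays. The 2 were Eip74EF probe CG32180-RB, above background in all 4 channels, and Hr3 probe CG33183-RC. The Hr3 probe was above background only in control larvae on array 1, so it was tested through the group where it is higher. The br and Eip75B probes with strong signal pointed in opposite directions on the 2 arrays. The receptor genes EcR and usp were near or below background. None of the 7 genes that could be tested passed across all probes. Of the 18 probes, 12 representing 7 genes were above background in at least 1 of the 4 channels and were tested, and 6 of these 12 entered through 1 channel alone. With limma and Benjamini-Hochberg adjustment over 6345 probes, 0 of the 12 passed an adjusted p of 0.05, as did 0 of all probes (percent called 0; lowest adjusted p = 0.995). At an unadjusted p under 0.05 there was 1 of the 12, Hr3 CG33183-RC, beside 149 of all probes (2.35%). An exact sign-flip test over 2 arrays cannot go below p = 0.5, so none was run. The 12 probes had a median log2 ratio of -0.11 (-0.0993 on array 1 and -0.0954 on array 2), beside 0.00979 over all probes tested.

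Among the 12 tested probes, 4 were lower in ablated larvae on both arrays, against 22.2% of all probes. Only Hr39 CG8676-RD was higher on both, against 24.6% of all probes. The other 7 had opposite signs on the 2 arrays, against 53.2% of all probes. A change of 2-fold or more that both arrays shared was seen in 0 members, beside 0.378% of all probes lower and 0.0158% higher, and one of that size with opposite signs also in 0, beside 5.71%. With 2 arrays, precision is limited throughout. Each error given with ± below is the SD of the log2 ratio between the arrays (n = 2). A measure of spot error within an array came from 12 other probes printed 17 times each. Among these, the probes of Gapdh1 and Hsp70Bc were above background in all 4 channels and those of Hsp60A, CG13334, Nup154 and betaTub85D in none. Copies of a probe had a median SD of the log2 ratio of 0.18 on array 1 and 0.19 on array 2. The largest SD was 0.43 and 0.37. Lower on both arrays by more than that largest SD were 2 of the 12 members, against 3.64% of all probes, and higher by as much were 0, against 2.03%. Of these 2 members, Hr3 CG33183-RC entered the test through control larvae alone, which leaves Eip74EF CG32180-RB. With the sign of array 2 turned, 1 member was lower by that much and 2 were higher, against 7.55% and 7.42% of all probes.

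**Figure D1:**
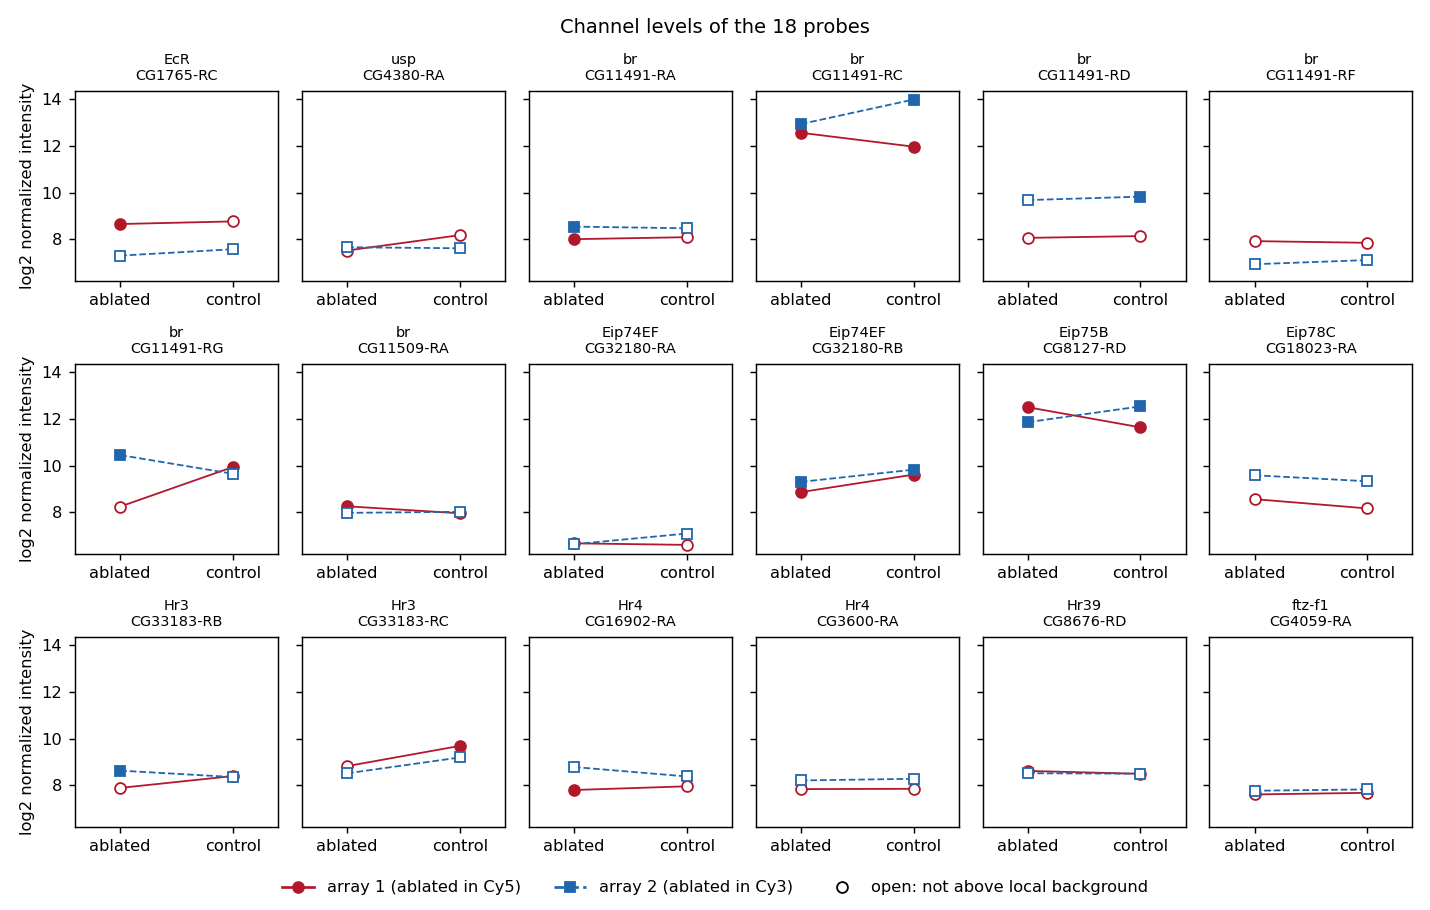
Channel levels of all 18 probes, as log2 intensity after background correction, loess and Aquantile scaling, with ablated larvae on the left and control larvae on the right of each panel. Red circles are array 1 and blue squares array 2, and open symbols were not above local background. Lines slope upwards to the control larvae on both arrays for Eip74EF CG32180-RB and Hr3 CG33183-RC, and cross directions for br CG11491-RC, br CG11491-RG and Eip75B CG8127-RD.

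The ecdysone receptor itself gave little signal. EcR probe CG1765-RC had 441 and -85 intensity units above local background in ablated larvae on arrays 1 and 2, against 332 and -56 units in control larvae. Signal was thus present on array 1 in both groups and lay below the surrounding background on array 2. On array 1 the ablated channel was above background and the control channel was not, although their signals were close, because the background beside the control spot had an SD of 856 units against 96 in the ablated channel. Its log2 ratio was -0.11 on array 1 and -0.27 on array 2, and averaged 0.0803 with the sign of array 2 turned. The control larvae were not above background on either array, and the bound on the fold was under 1, so no fold is given. Judged by the median background SD of each channel in place of the SD beside the spot, a setting chosen after seeing the data, EcR was above background in both groups on array 1 and in neither on array 2. The probe of its partner usp, CG4380-RA, was above background in no channel, at -8 and -19 units in ablated larvae and 128 and -37 units in control larvae. It has no usable difference between the groups.

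The early gene br, known as Broad, encodes a family of zinc finger proteins from alternative transcripts, and its 6 probes gave different ratios. Probe CG11491-RC was above background in all 4 channels, with 12688 and 4467 units in ablated larvae on arrays 1 and 2 and 5139 and 8511 units in control larvae. Ablated larvae were the brighter group on array 1 and the dimmer on array 2, so the groups overlapped. The log2 ratio was 0.60 on array 1 and -1.05 on array 2 (-0.23 ± 1.16). Read by dye, Cy5 was the brighter channel both times.

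Probe CG11491-RG of the same gene did the reverse. It had 303 and 751 units in ablated larvae on arrays 1 and 2, against 981 and 313 units in control larvae. Cy3 was therefore the brighter channel on both arrays, and each group was above background on 1 array. Its log2 ratio was -1.70 on array 1 and 0.80 on array 2 (-0.45 ± 1.77). The log2 ratio of CG11491-RC minus that of CG11491-RG was 2.29 on array 1 and -1.85 on array 2. These br probes thus differed from each other on each array by more than the largest SD between copies of a spot, in a direction that turned with the dyes. With the sign of array 2 turned, CG11491-RG averaged -1.25 (limma adjusted p = 0.00332) and CG11491-RC 0.82 (adjusted p = 0.133). CG11491-RG was the 1 member probe of 12 that passed in that reading, in which 552 of all 6345 probes passed.

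The remaining br probes lay near 0. CG11491-RD was above background in control larvae on array 2 only, with 146 and 363 units in ablated larvae against 138 and 388 units in control larvae. Its ratios were -0.0765 and -0.15, a measured 1.08-fold excess in the control larvae that equals its bound and so gives no minimum, and their mean was 0.0354 with the sign of array 2 turned. CG11491-RA was above background in ablated larvae on both arrays, at 123 and 84 units, and not in control larvae, at 125 and 59 units. Its ratios were nevertheless -0.0853 and 0.0712 (-0.0783 on average with array 2 turned), and the local background SD beside the control spot on array 1 was 551 units against 53 for the ablated channel. CG11509-RA was above background in ablated larvae on array 1 only, with 204 and 12 units against 103 and 8 units in control larvae, and ratios of 0.30 and -0.0435 (0.17 with array 2 turned). CG11491-RF was above background in no channel. Judged by the median background SD of each channel, CG11491-RA and CG11509-RA were also above background in none. Over the 10 pairs of br probes that could be compared, the difference between probes had the same sign on both arrays in 1 pair, CG11491-RD and CG11509-RA, where it was -0.38 and -0.10.

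The early gene Eip74EF encodes an Ets-domain transcription factor. Probe CG32180-RB was above background in all 4 channels, with 608 and 239 units in ablated larvae on arrays 1 and 2, against 755 and 396 units in control larvae. Judged by the median background SD of each channel, it was above background in 3 channels and not in ablated larvae on array 2. The ablated channel was the dimmer on each array, and after scaling between arrays both ablated levels (8.86 and 9.30 on the log2 scale) lay below both control levels (9.61 and 9.83). Levels without overlap in this direction were seen for 2 of the 12 member probes, the other being Hr3 CG33183-RC, and for 4.14% of all probes. The log2 ratio was -0.75 on array 1 and -0.52 on array 2 (-0.64 ± 0.16), larger on both arrays than the spread between copies of a spot. It did not pass limma (unadjusted p = 0.0572, adjusted p = 0.995). Aquantile scaling, counted among the 8 versions of the values with the labelled dyes, leaves the ratios unchanged. The mean kept its sign in all 8, with a range of -0.92 to -0.44, and adjusted p ranged from 0.995 to 1.00 over the alternatives. With the sign of array 2 turned it was -0.11. The other probe of the gene, CG32180-RA, was darker than its surroundings in every channel (-192 and -239 units in ablated larvae, -109 and -151 units in control larvae), so the transcripts of Eip74EF could not be compared.

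Eip75B encodes a haem-binding nuclear receptor that inhibits Hr3. Its probe CG8127-RD had 12128 and 2126 units in ablated larvae on arrays 1 and 2, against 4053 and 3198 units in control larvae, all above background. As with br CG11491-RC, Cy5 was brighter on both arrays and the groups overlapped. The log2 ratio was 0.86 on array 1 and -0.68 on array 2 (0.0929 ± 1.09). With the sign of array 2 turned it averaged 0.77 (limma adjusted p = 0.190).

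**Figure D2:**
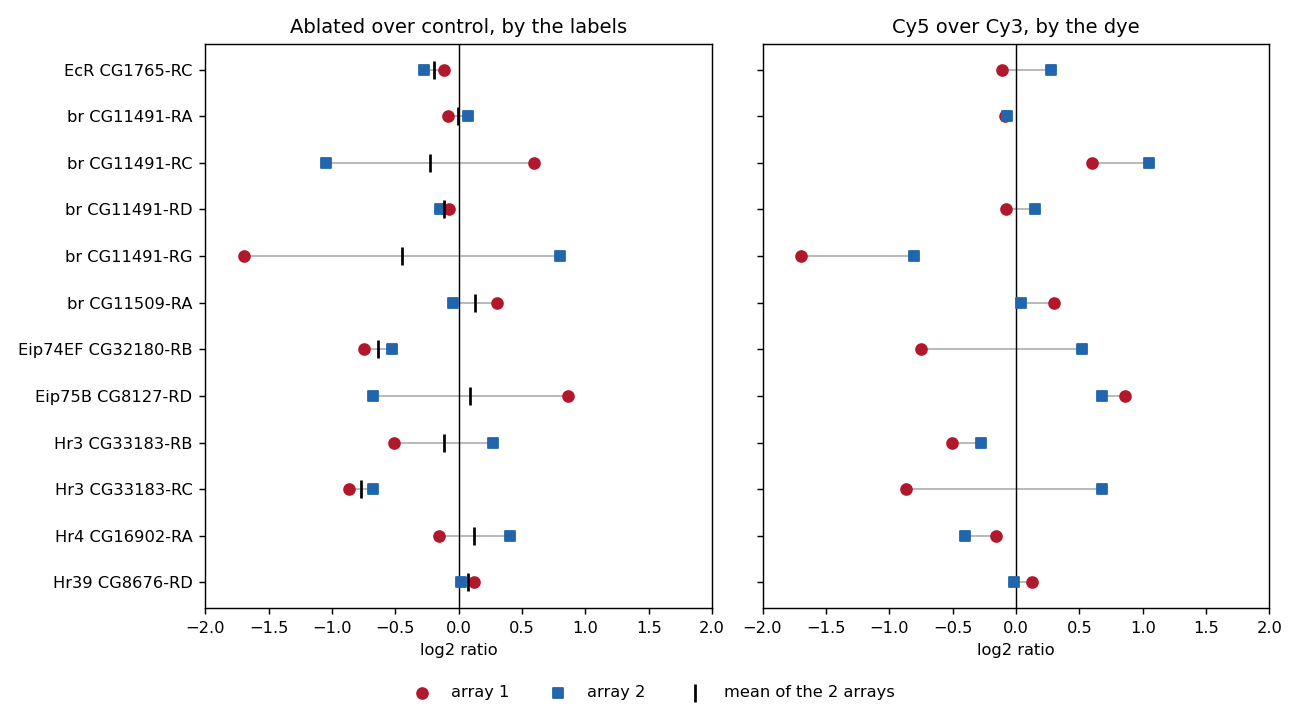
Log2 ratios of the 12 tested probes on array 1 (red circles) and array 2 (blue squares), as ablated over control larvae by the labels on the left and as Cy5 over Cy3 on the right. Black ticks are means over the 2 arrays. Hr3 CG33183-RC and Eip74EF CG32180-RB lie below 0 on both arrays on the left, whereas br CG11491-RC, br CG11491-RG and Eip75B CG8127-RD lie on 1 side of 0 only when read by dye.

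Of the early-late nuclear receptors, Hr3 activates ftz-f1 and had 2 tested probes. Probe CG33183-RC gave 584 and 67 units in ablated larvae on arrays 1 and 2, against 803 and 208 units in control larvae. The ablated larvae were dimmer both times, but only the control channel of array 1 was above background. Judged by the median background SD of each channel, both groups were above background on array 1 and neither on array 2. Scaled levels were 8.82 and 8.51 in ablated larvae and 9.69 and 9.19 in control larvae, without overlap. The log2 ratio was -0.87 on array 1 and -0.68 on array 2 (-0.77 ± 0.13; limma unadjusted p = 0.0351, adjusted p = 0.995, and 0.995 to 1.00 over the alternatives). As a fold this is 1.71 higher in the control larvae, and since the ablated larvae were not above background and the bound equals the measured fold, it is no minimum. The mean ranged from -1.45 to -0.62 over the 8 versions of the values, below 0 on both arrays in each, and was -0.0938 with the sign of array 2 turned. Aquantile scaling, counted among the 8, leaves the ratios unchanged.

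The second Hr3 probe, CG33183-RB, did not follow the first. It gave 107 and 102 units in ablated larvae and 199 and 38 units in control larvae, with each group above background on the array where it was labelled with Cy3. The log2 ratio was -0.51 on array 1 and 0.27 on array 2 (-0.12 ± 0.55), and the mean was -0.39 with the sign of array 2 turned. The ratio of CG33183-RB minus that of CG33183-RC was 0.36 on array 1 and 0.95 on array 2 (0.66 ± 0.42), so CG33183-RC was relatively the lower in ablated larvae both times. On array 1 this difference was within the largest SD between copies of a spot. On array 2 it compared signals of which only that of CG33183-RB in ablated larvae was above background. Judged by the median background SD of each channel, CG33183-RB was above background in no channel. The difference between the probes thus rests mostly on signals not told from background.

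Eip78C, a nuclear receptor related to Eip75B, gave 350 and 333 units in ablated larvae against 153 and 223 units in control larvae. The ablated channel was the brighter on both arrays, with log2 ratios of 0.40 and 0.26, yet no channel exceeded its local background by 2 SD and the probe was not tested. Judged by the median background SD of each channel, it was above background in ablated larvae on both arrays and in control larvae on neither. Hr4 probe CG16902-RA, for a nuclear receptor that acts in the prothoracic gland, where ecdysone is made, was above background in ablated larvae on array 1 only. It gave 50 and 131 units in ablated larvae and 88 and 38 units in control larvae. Its ratios were -0.16 and 0.40 (-0.28 with array 2 turned). By the median background SD it was above background in no channel. The second Hr4 probe, CG3600-RA, was above background in no channel (52 and 36 units in ablated larvae, 67 and 37 units in control larvae).

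Hr39, a close relative of ftz-f1, gave 404 and 79 units in ablated larvae and 242 and 64 units in control larvae. It was above background in ablated larvae on array 1 only, where the background SD was 32 units beside 455 in the control channel. Its log2 ratios were 0.12 and 0.0194 (0.0522 with array 2 turned), both smaller than the median SD between copies of a spot. Its scaled levels were above those of the control larvae without overlap, by a margin of 0.0194 on the log2 scale between the nearest values, as for 3.37% of all probes. The ftz-f1 probe was above background in no channel, at -5 and -4 units in ablated larvae and 35 and -5 units in control larvae. Of the 7 tested genes, Hr3, Eip74EF, Eip75B and br had a probe whose log2 ratio exceeded the largest SD between copies of a spot on both arrays. Of these 5 probes, 2 had the same sign on both arrays and 3 had opposite signs. The latter pattern was thus seen in 3 of the 12 tested members, against 950 of all 6345 probes tested (15%).

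**Figure D3:**
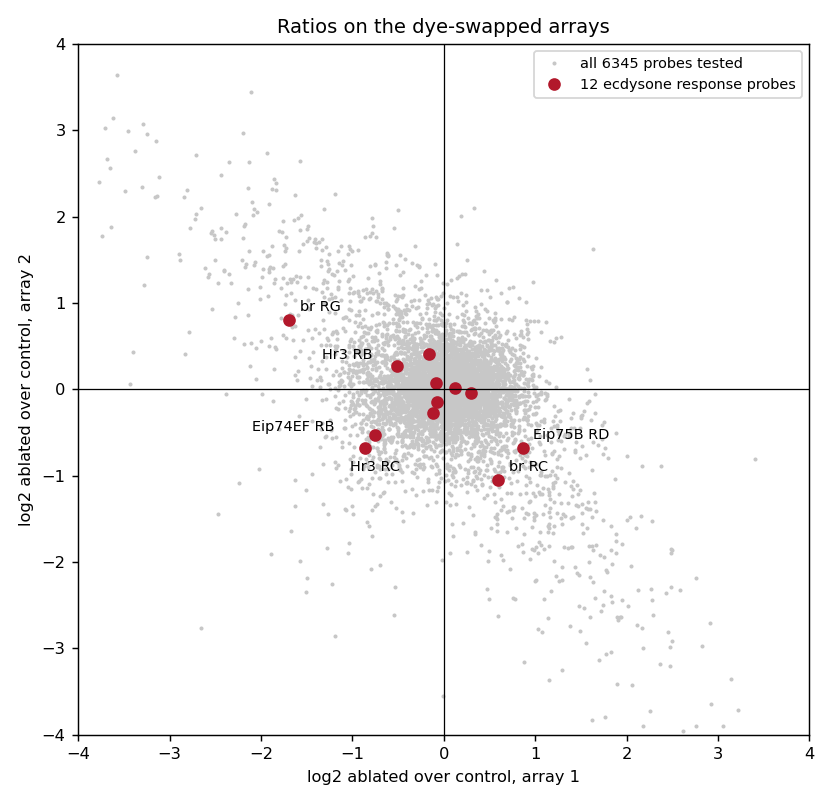
Log2 ratio of ablated over control larvae on array 1 (x axis) and array 2 (y axis) for the 6345 probes tested (grey) and the 12 member probes (red), with 16 probes outside the axes. Most of the spread of all probes runs from upper left to lower right, where br CG11491-RG, br CG11491-RC and Eip75B CG8127-RD lie, and Hr3 CG33183-RC and Eip74EF CG32180-RB lie at the lower left.

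The authors' deposited table holds uncentred log2 ratios, with medians of 0.487 on array 1 and -0.115 on array 2. In the authors' deposited table Eip74EF CG32180-RB stood at -0.31 and -0.73 and Hr3 CG33183-RC at -0.46 and -1.65, so both lay below 0 and below the array median on each array. The br probe CG11491-RC stood at 1.30 and -0.93 there, CG11491-RG at -1.69 and 1.27 and Eip75B at 1.58 and -0.59, again with opposite signs. EcR was at 0.41 and 0.61 in the authors' deposited table, above 0 on both arrays but below the array median on array 1, whereas it was below 0 on both after loess. On array 2 both groups lay below local background (-85 units in ablated and -56 units in control larvae), so the deposited value there gives no usable direction.

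**Figure D4:**
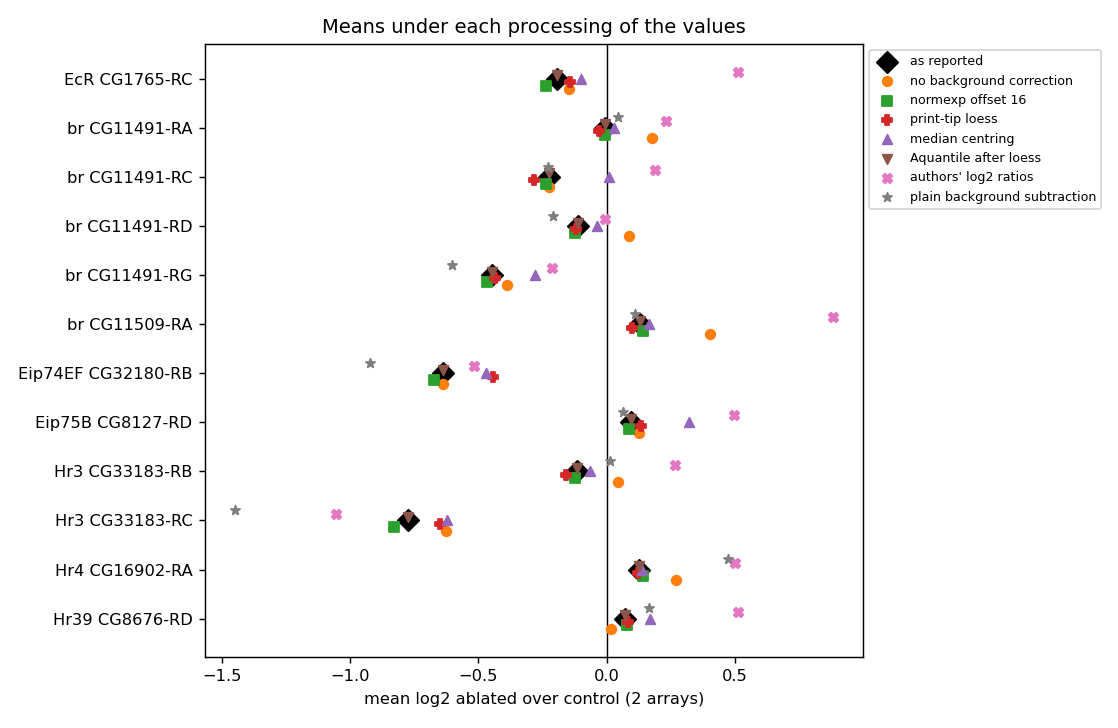
Mean log2 ratio over the 2 arrays for each tested probe as reported (black diamonds) and under 7 other ways of processing the values (6 for EcR, which plain subtraction left without a value), with the labelled dyes. Aquantile scaling leaves the ratios unchanged, so its values equal those as reported. Eip74EF CG32180-RB and Hr3 CG33183-RC stay below 0 under every processing, between -0.92 and -0.44 and between -1.45 and -0.62. EcR lies above 0 in the authors' log2 ratios, where both of its groups were below local background on array 2.

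The rest of the pathway was read from 4 lists. Their directions rest on the labelled dyes, and a gene with like ratios on both arrays averages near 0 once the sign of array 2 is turned, as for tai at 0.00436 and Hnf4 at -0.0139. Of the 13 other nuclear receptor genes, 9 probes of 7 genes were tested, and 4 were higher and 2 lower in ablated larvae on both arrays (median 0.17). Hnf4, a sensor of fatty acids, was above background in all 4 channels at 0.32 and 0.35. The gap gene kni was not above background in control larvae, and its measured 1.35-fold excess in ablated larvae equals its bound. Of the receptor cofactors and genes of ecdysone entry or inactivation, 5 of 11 genes were tested and 2 were lower on both arrays, with 0 higher. They were tai, the coactivator of the ecdysone receptor, at -0.84 and -0.85 (limma unadjusted p = 0.0254, adjusted p = 0.995) and Usp7, a ubiquitin protease, at -0.38 and -0.0845. On array 2 neither group was above background for tai or for Usp7. In the authors' deposited table tai stood at -0.33 and 1.64.

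For ecdysteroid synthesis, 3 of 13 genes were tested. The last enzyme of the pathway, shd, had ratios of -1.81 and -0.46, and of -5.16 and 0.71 in the authors' deposited table. It was above background only in control larvae on array 1, so it was tested through the group where it is higher. Its bound came to 1.10-fold in the control larvae for the mean over both arrays as labelled. It used the control level on array 2 as measured, although that was not above background, so it is no minimum. The transcription factor ouib, which controls an enzyme of the pathway, had ratios of 0.0452 and -0.61. Among 34 secondary ecdysone targets, 20 probes were tested, of which 10 were lower on both arrays and 0 higher (median -0.15), beside 22.2% and 24.6% of all probes. With the sign of array 2 turned, 5 were lower and 5 higher on both. The 4 that were at least 2-fold lower on both, beside 0.378% of all probes, were the salivary glue genes Sgs3, Sgs5, Sgs7 and Sgs8. On array 2, Sgs3 was above background in neither group, and Sgs5 and Sgs7 were so in control larvae only. Sgs8 was not above background in ablated larvae on array 1. The summed normalized intensity of these 4 genes was 4435 and 3268 in ablated larvae against 11191 and 16640 in control larvae. Because the 4 glue genes were lower on both arrays as labelled, turning array 2 must give each opposite signs. That reading therefore cannot test their direction. Of the 6 fat body markers, 3 were lower and 1 higher on both arrays. Fbp1 stood at -0.69 and -0.72 (limma unadjusted p = 0.0396, adjusted p = 0.995), with neither group above background on array 2. In the authors' deposited table Fbp1 stood at -0.042 and -1.47. Lsp1alpha, above background in every channel, stood at -0.67 and -0.29. The 6 markers had a summed normalized intensity of 13082 and 22695 in ablated larvae against 17978 and 17058 in control larvae. The part of the salivary gland, the fat body or the stage of the larvae in the values of Eip74EF and Hr3 was not tested. No probe of these 4 lists passed limma at an adjusted p of 0.05 (lowest adjusted p = 0.995). Of their 37 tested probes, 7 had an unadjusted limma p under 0.05, beside 2.35% of all probes. The glue genes gave 4 of these 7 and were listed with earlier results known. The 7 also include tai and Fbp1, for which neither group was above background on array 2.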

How the data were processed

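RNA of ablated and control larvae was measured on 2 two-colour arrays with 15552 spots each. Per the file headers, the authors scanned and quantified them with GenePix Pro 7.1.25. The deposited values used are the intensity medians of spot and local background, with background SD, at 635 nm (Cy5) and 532 nm (Cy3). The deposited percent of saturated pixels was 0 for all member probes. The authors also deposited log2 ratios. Set against the scanner's log ratios, they run as ablated over control on both arrays (r = 1 and -0.998 against 635 over 532 nm); further steps are not given in the sources used here.

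In limma 3.58.1 under R 4.3.3, normexp with an offset of 50 was used for the background and loess for each array, in which control spots had weight 0. Repeated spots of 1 probe were averaged. Probes above background in no channel were left out, leaving 6345. Probe names were matched to symbols through the RefSeq Release 6 gene table (12688 by locus tag, 1218 by synonym, 687 kept as in the files). The 2 log2 ratios were tested against 0 with lmFit and eBayes, two-sided, with Benjamini-Hochberg adjustment over all probes. A check on simulated data used independent errors on the 2 arrays, whereas the real ratios ran against each other. It therefore does not show how the test behaves on ratios like these. Where a group was above background on neither array, a bound on the fold came from channel levels scaled by loess and then Aquantile, in which the dim group was set on each array to the lowest level of any probe above background, or to its own level where that was higher. Summed levels are on that scale. No fold is given where the bound is under 1.

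The members and lists were chosen with earlier results of these data known. Named are all member probes, and in each list the 2 tested probes with the smallest p and any at least 2-fold the same way on both arrays. EcI, Kr-h1, phm, Eip71CD, Eip55E and ImpL3 matched no probe by symbol. With 2 arrays, no likeness of pattern between genes was computed.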

Additional observations from a re-analysis of the deposited data

How the results depend on the processing

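The count of probes past an adjusted p of 0.05 was 0 under every alternative that could be tested with the labelled dyes, at an adjusted p of 0.1 and with an intensity trend too, and 552 once the sign of replicate 2 was turned. The median over tested member probes, -0.11 as reported, was 0.0116 with plain background subtraction, 0.0288 without background correction, -0.12 with a normexp offset of 16, -0.13 with print-tip loess, -0.0141 with median centring, -0.0879 with no filter on dim probes, -0.23 over the 3 probes above background in every channel, -0.19 with the brightest probe of each gene, 0.25 in the authors' log2 ratios, -0.0214 when replicate 2 had its sign turned and -0.19 with the array's median background SD in the filter, an alternative added after seeing the data. The median of all probes moved to 0.14 with median centring and to 0.31 in the authors' values, so relative to it the members lay lower in both, whereas they lay slightly above it with plain subtraction (median of all probes 0.00325) and without background correction (0.0217). Left to 1 array, the median ranged from -0.0993 to -0.0954, with no test. Members lower on both arrays numbered 4 as reported, 1 among those above background in every channel and 2 in the authors' values. Members higher on both numbered 1 as reported, 2 without background correction, without the filter and with the median background SD, 0 above background in every channel and 3 in the authors' values and with the sign turned. The 3 in the authors' values include EcR, whose groups were both below local background on array 2. At least 2-fold the same way there were 0 as reported and 1 with plain subtraction, and 1 at a 1.5-fold threshold. For single member probes, 24 values moved by more than the SD between arrays and 95 did not. The 95 include the values left to 1 array and those after Aquantile scaling, which by this measure could not move. The cause of these shifts was not tested. No spot carried a flag, so leaving out flagged spots was not run. No paired analysis was possible because each array already sets 1 ablated against 1 control RNA.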
